A study of Homo sapiens with 16 samples.

Results

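The zinc finger genes of human chromosome 19 form long rows of related neighbours, and 240 of them were read in the gene count table of PC3 cells. They were taken as the protein-coding genes on chromosome 19 of the GENCODE v29 annotation whose symbol is ZNF or ZSCAN followed by a number. The 240 genes, 236 ZNF and 4 ZSCAN, were found among 20356 genes in the table, and the other 5 annotated genes of that kind were not analysed here. By position 82 lay on the short arm and 158 on the long arm. Neighbours starting less than 1 Mb apart were put in 1 block, which gave 16 blocks numbered from the short-arm end.

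PC3 is an established human prostate cancer cell line that grows without androgen and forms tumors when grafted. The study asked, per its design text, how the RNA helicase DDX4, known from germ cells, bears on the cancer-promoting properties of PC3. RNA was sequenced from 4 groups of 4 libraries each: control PC3 cells grown as monolayers, DDX4-null PC3 cells grown as monolayers, control PC3 xenograft tumors, and DDX4-null PC3 xenograft tumors. The labels do not name the host of the grafts, the way DDX4 was removed, the number of clones, or whether animals were pooled. They do not state whether the 4 libraries of a group stem from different cultures or animals, so p-values cover library-to-library spread only, and that spread may be technical.

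Most of these genes encode C2H2 zinc finger proteins with a KRAB domain, which bind DNA through their finger arrays and recruit the corepressor TRIM28 and the histone methyltransferase SETDB1. Many bind transposable elements; ZNF91 and ZNF93, for example, are known repressors of SVA and L1 elements. The clusters arose by repeated duplication, and the clusters themselves are known to carry heterochromatin marks over their gene bodies in many cell types. ZSCAN proteins carry a SCAN domain, through which they pair with each other, in place of or beside KRAB.

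Library totals ran from 12204254 to 25443952 counts. At a floor of 3 counts, a gene with 0 counts could thus have reached 0.118 to 0.246 CPM (counts scaled to the library total). That floor is without TMM factors, which the CPM levels below include. DDX4 itself had 10, 7, 13 and 11 counts summed over control cells, DDX4-null cells, control tumors and DDX4-null tumors, with 0 to 5 in any library, so its level did not check the genotype labels. All 5 epithelial markers examined were at 1 CPM or more in every group, and the prostate genes KLK2 (every group) and KLK3 (control cells and DDX4-null tumors) were at 0. In the tumors, 7 fibroblast markers summed to 1377 to 10759 CPM per library, against 23.8 to 57.7 CPM in the cells.

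The start regions of the genes with the deepest falls in DDX4-null cells are shown first, because they differ between clusters. Promoter windows of 300 bases were available from RefSeq (GRCh38.p14) for 210 of the 240 genes, at the most upstream start where a gene had several, and the 250 bases before the start are printed 5′ to 3′ on the gene's strand. ZNF43 (chr19:21836183-21836432, minus strand), ZNF493 (chr19:21396883-21397132, plus strand), ZNF93 (chr19:19900696-19900945, plus strand) and ZNF492 (chr19:22634074-22634323, plus strand) lie in block 5, the short-arm cluster nearest the centromere. Capitals mark TCCAATCAG, the longest run shared by all 9 genes of block 5 that fell at least 8-fold or were switched off.
ZNF43: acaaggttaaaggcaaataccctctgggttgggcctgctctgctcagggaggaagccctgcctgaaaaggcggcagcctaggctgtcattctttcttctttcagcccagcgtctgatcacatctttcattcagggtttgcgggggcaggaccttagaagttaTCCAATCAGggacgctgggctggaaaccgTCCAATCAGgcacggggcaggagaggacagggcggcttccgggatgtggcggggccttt
ZNF493: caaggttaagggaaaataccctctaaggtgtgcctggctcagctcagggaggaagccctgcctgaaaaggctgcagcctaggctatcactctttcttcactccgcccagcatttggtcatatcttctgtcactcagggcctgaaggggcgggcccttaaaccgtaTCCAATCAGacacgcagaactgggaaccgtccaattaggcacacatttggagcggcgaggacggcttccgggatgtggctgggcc
ZNF93: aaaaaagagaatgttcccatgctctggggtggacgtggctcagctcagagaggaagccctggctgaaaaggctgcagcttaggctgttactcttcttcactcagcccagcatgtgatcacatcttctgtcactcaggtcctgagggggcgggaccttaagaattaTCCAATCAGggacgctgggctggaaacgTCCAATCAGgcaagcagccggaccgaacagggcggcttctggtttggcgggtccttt
ZNF492: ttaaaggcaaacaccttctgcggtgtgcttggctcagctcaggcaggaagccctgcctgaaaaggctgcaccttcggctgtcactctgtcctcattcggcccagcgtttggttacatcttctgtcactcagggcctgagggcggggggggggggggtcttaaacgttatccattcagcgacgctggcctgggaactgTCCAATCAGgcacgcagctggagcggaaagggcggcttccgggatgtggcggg
The run, searched on both strands, was in the windows of all 9 of those genes and of all 19 other block 5 genes with a window. It was in 12.6% of the 182 members outside block 5, in 0 of the 12 members outside it that fell at least 8-fold or were switched off, and in 0.886% of all 27305 windows. Of those 19 genes, 11 fell less than 8-fold in DDX4-null cells, 1 (ZNF101) was higher and 7 were too low to be tested. Any pair among the 9 block 5 genes shared an unbroken run of 14 to 43 bases (median 24), whereas pairs among the 5 genes of other blocks that were off in DDX4-null cells shared 7 to 9 (median 8).

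Of those 5 genes, ZSCAN18 (chr19:58118405-58118654, minus strand) and ZNF222 (chr19:44025129-44025378, plus strand) are shown, ZSCAN18 as the gene with the largest ratio between the cell groups and ZNF222 as the gene with 0 counts in every DDX4-null cell library. Capitals mark CG dinucleotides, of which the ZSCAN18 stretch holds 27 and the ZNF222 stretch 10.
ZSCAN18: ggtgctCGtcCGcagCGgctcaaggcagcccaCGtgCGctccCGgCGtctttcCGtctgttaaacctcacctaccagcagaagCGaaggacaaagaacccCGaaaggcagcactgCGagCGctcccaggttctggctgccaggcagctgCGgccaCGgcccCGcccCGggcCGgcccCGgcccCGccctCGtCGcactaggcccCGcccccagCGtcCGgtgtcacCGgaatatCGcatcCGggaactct
ZNF222: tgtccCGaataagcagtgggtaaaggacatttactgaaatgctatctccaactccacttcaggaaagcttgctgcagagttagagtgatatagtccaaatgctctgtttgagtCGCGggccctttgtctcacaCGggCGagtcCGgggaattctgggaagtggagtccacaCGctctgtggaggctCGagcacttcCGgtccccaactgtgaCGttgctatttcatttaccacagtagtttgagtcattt
Over the 300-base windows the median CG count was 13 for all genes, 20 for the members and 24 for ZNF and ZSCAN genes on other chromosomes. Among the members it was 10 (8 to 18) in block 5, against 22 in block 9, 19 in block 12, 25 in block 15 and 23 in block 16. Members that fell at least 8-fold or were off had a median of 16 CG (21 genes), those that fell less had 21 (105 genes), and those not called had 22.5 (42 genes). Block 5 supplied 9 of the 21.

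Levels of the whole set were lowest in DDX4-null cells. The 240 genes summed to 3636 ± 137 CPM (SD, n = 4 in each group) in control cells, 2546 ± 134 in DDX4-null cells, 4371 ± 277 in control tumors and 4456 ± 186 in DDX4-null tumors. Per library the sums were 3430 to 3713, 2387 to 2686, 4053 to 4681 and 4265 to 4691 CPM in that order. No library of DDX4-null cells overlapped a library of another group, control cells lay below both tumor groups, and the tumor groups overlapped each other. The 237 ZNF and ZSCAN genes of other chromosomes summed to 6271 ± 136, 5556 ± 205, 6215 ± 184 and 6460 ± 166 CPM. Between 189 and 192 members reached 1 CPM in the libraries of control cells, 160 to 166 in DDX4-null cells, 195 to 199 in control tumors and 192 to 198 in DDX4-null tumors.

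**Figure D1:**
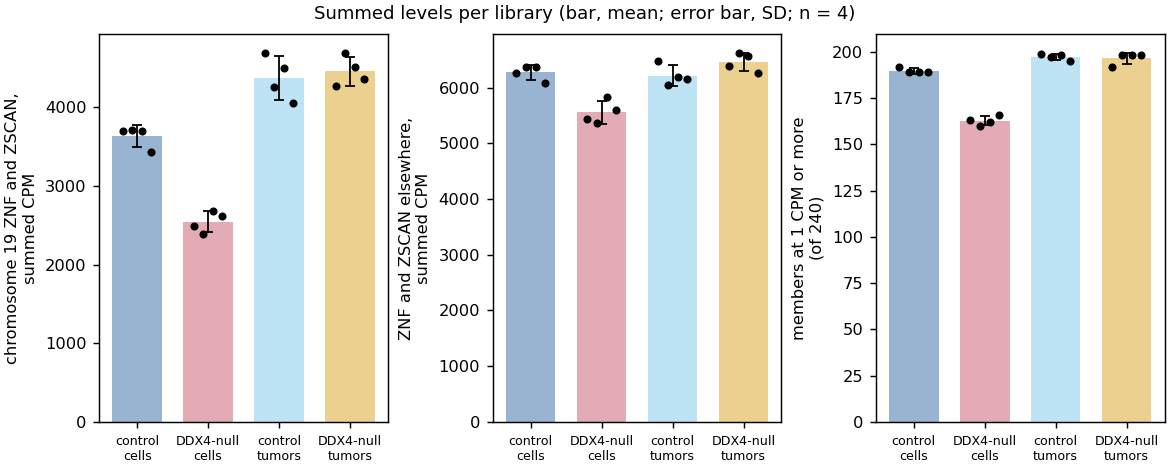
Summed TMM-scaled CPM per library of the chromosome 19 ZNF and ZSCAN genes (left) and of those on other chromosomes (middle), and members at 1 CPM or more (right), by group. Points are libraries, bars are means and error bars SD (n = 4); for the chromosome 19 genes the DDX4-null cells, at 2387 to 2686 CPM, sit below every other library.

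By group means, 201 members reached 1 CPM in at least 1 group, 162 of them in every group, and 39 in none. Another way to see the same order is the lowest group of each of the 201 genes, which was DDX4-null cells for 179, control cells for 15, DDX4-null tumors for 5 and control tumors for 2. The silent end also differed, with 26 members at 3 or fewer counts over the group in control cells, 40 in DDX4-null cells, 20 in control tumors and 22 in DDX4-null tumors, 17 of them in all groups. ZSCAN1, at 0 in every library, and ZSCAN4, at 2 counts or fewer in each group, belonged to the silent end.

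A member was counted as switched off in a group where its 4 libraries held at most 3 counts in all while another group averaged at least 1 CPM. By that rule 9 of the 201 members were off somewhere: 8 in DDX4-null cells, and ZNF536 in control cells and control tumors. Over all genes 3.61% were off in some group. Off in DDX4-null cells were 3.98% of the members against 1.12% of all 13249 genes that reach 1 CPM. In control cells it was 1 member, or 0.498%, against 2.76% of all genes, in control tumors 1 against 0.853%, and in DDX4-null tumors 0 members against 0.649%. Of 205 ZNF and ZSCAN genes on other chromosomes, 1 was off in DDX4-null cells.

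ZSCAN18, a SCAN-domain gene known for promoter methylation in several cancers, had 262, 242, 242 and 282 counts in the 4 libraries of control cells and 2, 0, 0 and 0 in those of DDX4-null cells. The groups stood far apart, at 16.6 ± 2.07 and 0.0267 ± 0.0533 CPM, a ratio of 604 (95% interval 167 to 4997, covering counting error only). It was also low in both tumor groups, with 23, 6, 37 and 6 counts in control tumors and 1, 2, 4 and 2 in DDX4-null tumors. ZSCAN18 was lower in control tumors than in control cells (log2 change −4.17 ± 0.29 SE, adjusted p = 1.56e-09, edgeR quasi-likelihood test with Benjamini-Hochberg adjustment over all genes, as throughout), and the control tumors split, libraries 1 and 3 at 1.60 and 1.37 CPM and libraries 2 and 4 at 0.353 and 0.302.

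ZNF607 followed the same order. It had 34, 16, 35 and 25 counts in control cells, 0, 1, 0 and 0 in DDX4-null cells, 2, 4, 8 and 4 in control tumors, and 6, 1, 1 and 1 in DDX4-null tumors. Control cells exceeded DDX4-null cells by a ratio of 129 (22.7 to 5154), and all tumor libraries lay below all control cell libraries (control tumors −2.89 ± 0.33 log2, adjusted p = 9.09e-07). In the DDX4-null tumors library 1, at 0.521 CPM, stood apart from the other 3, at 0.0544 to 0.0626.

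Both genes contrast with a group of 6, which were off in DDX4-null cells and expressed in both kinds of tumor. ZNF222, in the block 12 cluster with ZNF283, had 44, 28, 48 and 45 counts in control cells and 0 in each DDX4-null cell library, at least 64.7-fold lower at a floor of 3 counts over the group. In control tumors it had 41, 29, 77 and 35 counts, and in DDX4-null tumors 32, 54, 48 and 61, so the DDX4-null tumors were at least 75.5-fold above the DDX4-null cells. Control cells (2.62 ± 0.438 CPM) and both tumor groups (2.29 ± 0.644 and 3.07 ± 0.504 CPM) overlapped. ZNF283 had 37, 37, 48 and 45 counts in control cells, 1, 0, 0 and 1 in DDX4-null cells, 22, 42, 58 and 34 in control tumors and 21, 57, 50 and 39 in DDX4-null tumors. Its ratio of control to DDX4-null cells was 98.2 (26.8 to 817) and that of DDX4-null tumors to DDX4-null cells 97.0 (26.4 to 808), and its tumor groups overlapped.

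ZNF43, a large KRAB gene of the centromere-side cluster, had 44, 27, 46 and 32 counts in control cells and 0, 1, 0 and 2 in DDX4-null cells, a ratio of 58.4 (19.6 to 286). It had 86, 59, 133 and 86 counts in control tumors and 41, 94, 102 and 78 in DDX4-null tumors. Every tumor library, at 3.47 to 5.99 CPM, was above every control cell library, at 1.92 to 2.91. ZNF492, of the same cluster, had 15, 17, 15 and 15 counts in control cells, 0, 0, 1 and 2 in DDX4-null cells, 22, 19, 30 and 37 in control tumors and 16, 12, 23 and 24 in DDX4-null tumors. ZNF626, also there, had 16, 5, 18 and 18 counts in control cells, 0, 2, 0 and 1 in DDX4-null cells, 10, 20, 30 and 39 in control tumors and 9, 11, 21 and 21 in DDX4-null tumors. The DDX4-null cells stayed below every other library in both genes, and the other 3 groups overlapped. ZNF626 was too low for the test in cells and rests on 1 library, since without control tumor 4 it no longer reached 1 CPM in any group.

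ZNF568, a KRAB gene of block 9 whose mouse counterpart is known to repress a placental Igf2 transcript, had 20, 18, 15 and 14 counts in control cells and 0, 0, 1 and 0 in DDX4-null cells, a ratio of 78.8 (13.7 to 3157). It had 14, 14, 32 and 16 counts in control tumors and 22, 32, 14 and 32 in DDX4-null tumors. The tumor groups overlapped each other and the control cells.

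ZNF536, which stands alone in its block and is known as a regulator of neuronal differentiation without a KRAB domain, went the other way. It had 0 counts in each control cell library and 192, 151, 191 and 197 in DDX4-null cells, at least 207-fold higher. In control tumors it had 0, 0, 2 and 0 counts and in DDX4-null tumors 4, 8, 2 and 1. DDX4-null tumors, at 0.0626 to 0.435 CPM, were thus far below the DDX4-null cells at 8.88 to 11.7.

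**Figure D2:**
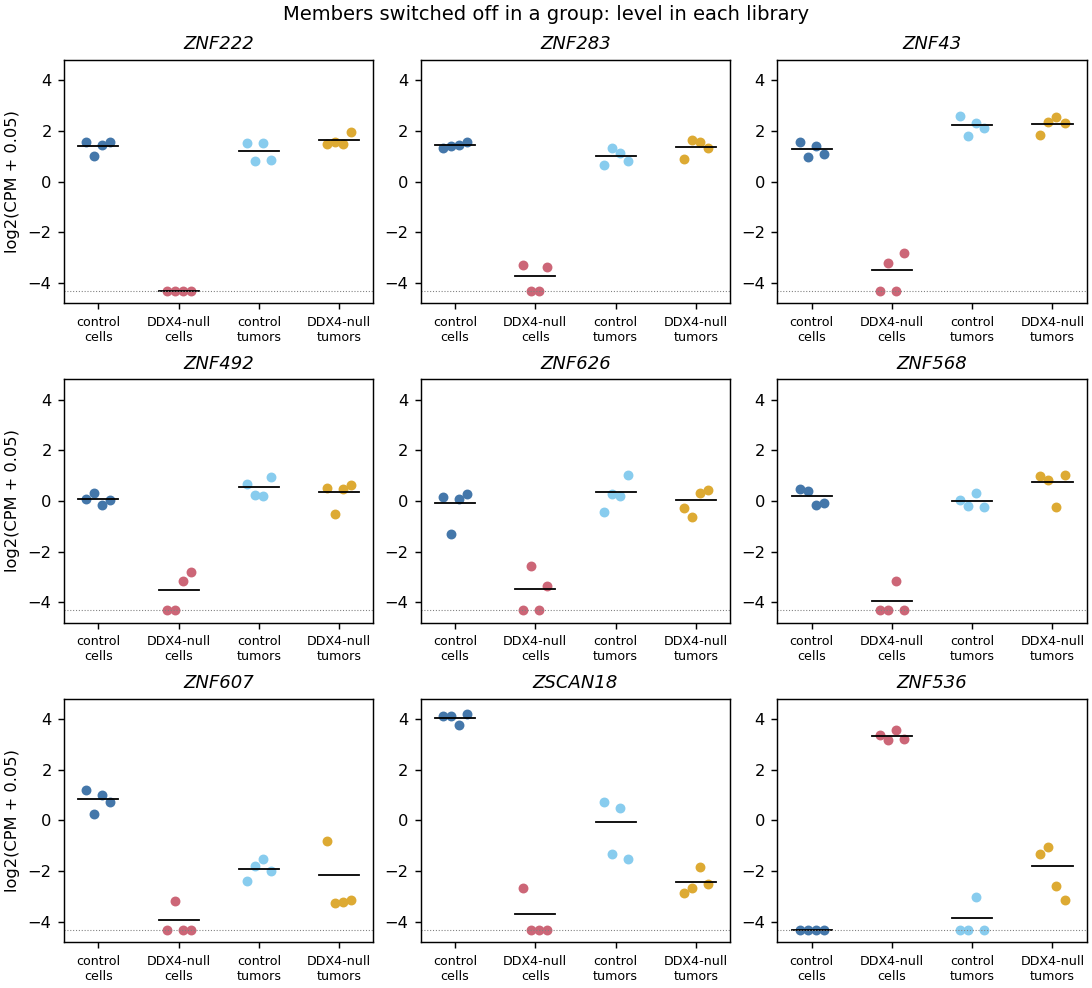
Level of the 9 members that were switched off in a group, as log2(CPM + 0.05) in each library. The line is log2(mean CPM + 0.05) of the 4 libraries, and 0 CPM is the dotted line. ZSCAN18 and ZNF607 were low in all tumors, ZNF536 was high in DDX4-null cells alone, and the other 6 were missing in DDX4-null cells alone.

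Near the threshold, ZNF626, ZNF43 and ZNF492 were just inside with 3 counts over DDX4-null cells. Just outside were ZNF93 with 5 counts, ZNF418 and ZNF730 with 7, and ZNF284 and ZNF493 with 8. Reads of duplicated genes can be split or lost between copies. Of the 50-base words in the transcripts of a member, a median of 2.35% also occurred in another gene, and for the 9 switched-off genes this was 6.79% (0.192% to 33.3%, highest in ZNF492), so small counts of ZNF492, and of ZNF222 at 16.8%, are uncertain.

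In monolayer cells most tested members were lower without DDX4. Of 194 members tested, 143 fell, 6 rose and 45 were not called, and the median log2 change was −0.71. Over all 13006 genes tested, 32.3% were called lower, 35% higher and the median was 0.02, so 73.7% of tested members fell against a background of 32.3%. In either direction 149 members were called, against 67.3% of all genes. A called fall of at least 2-fold was measured for 61 members, or 31.4%, against 8.66% of all genes, and one of at least 8-fold for 22, or 11.3%, against 0.961%. Among the 206 tested ZNF and ZSCAN genes of other chromosomes 68 fell and 40 rose (median −0.09), and among 744 other chromosome 19 genes 223 fell and 240 rose (median 0.03). No overlap between the libraries was seen for 121 of the members that fell (62.4% of those tested, against 27.6% of all genes) and 5 that rose (2.58% against 30.4%).

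The filter on low counts passed 25 of the 194 members through control cells alone, all of which fell, and 2 through DDX4-null cells alone. Of the 166 that passed in each group by itself, 117 fell and 5 rose, with a median of −0.59. With the 2 tested members that had 0 counts in a group set at their bound, the median of all 194 was again −0.71. The other 46 members were too low to be tested. With scaling by library totals only, 130 fell and 7 rose, while the median of all genes moved to 0.09. The shares of all genes called under that scaling are not given here, so these 2 counts have no background beside them.

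**Figure D3:**
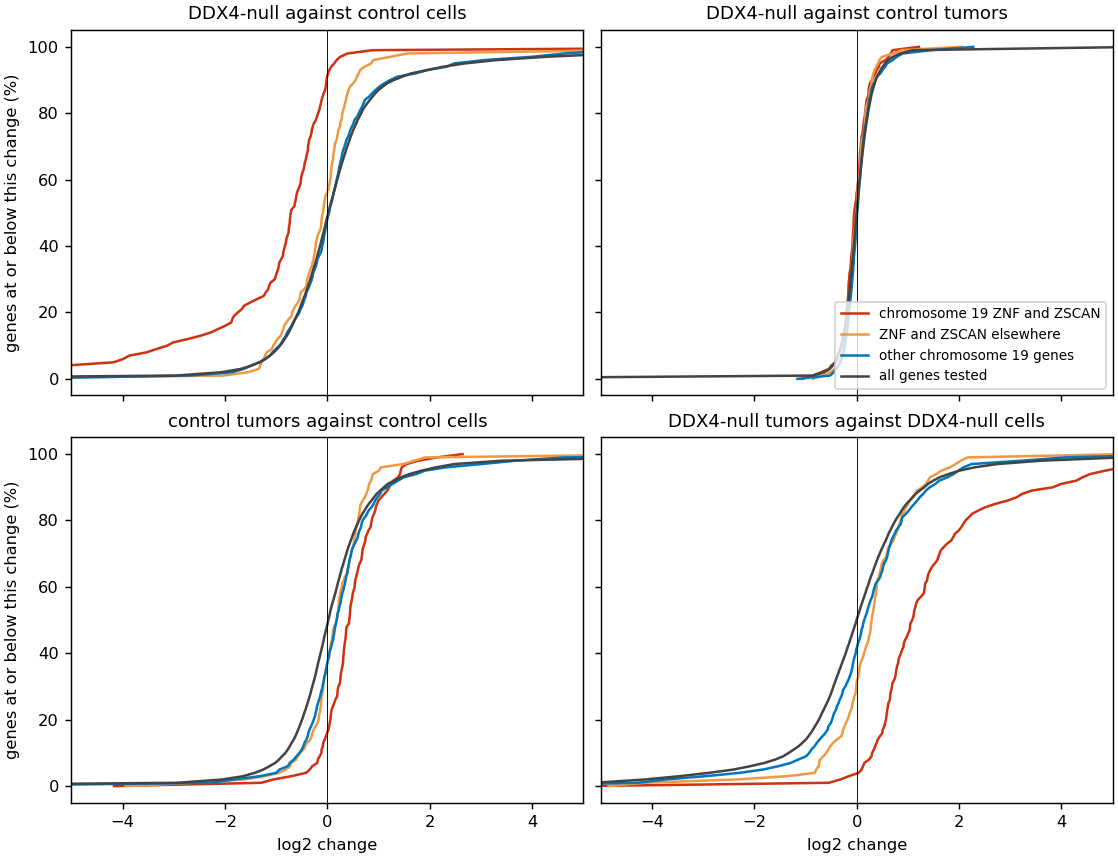
Cumulative share of genes by log2 change in each of 4 comparisons, for chromosome 19 ZNF and ZSCAN genes, those on other chromosomes, other chromosome 19 genes and all genes tested (axis limited to 5 on each side). In the cell comparison the chromosome 19 ZNF and ZSCAN curve has its median at −0.71 against 0.02 for all genes, and in the tumor comparison at −0.05.

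The falls were spread over both arms, with 39 of 60 tested short-arm members lower (median −0.65) and 104 of 134 long-arm members (median −0.71), but not evenly over blocks. In block 5, from ZNF101 to ZNF254, 21 of 22 tested members fell, 8 of them at least 8-fold, and the median was −2.20. In block 12, from ZNF575 to ZNF296, all 19 tested members fell, with a median of −1.15. Of the 19 other protein-coding genes lying among them 12 fell as well, with a median of −0.53, where 32.3% of all genes fell. In the other blocks with at least 10 such genes, 4 of 32 fell and 13 rose in block 2 (median 0.21). In block 16, 5 of 10 fell and 2 rose (median −0.30). Block 9, from ZNF565 to ZNF573, had 16 of 19 lower (median −0.95) and block 15, from ZNF175 to ZNF331, 32 of 36 (median −0.75). Block 16, nearest the long-arm end, had 33 of 50 lower (median −0.45), block 3 had 11 of 20 (median −0.33) and block 2 had 6 of 13 (median −0.17). The differences between blocks were not tested.

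**Figure D4:**
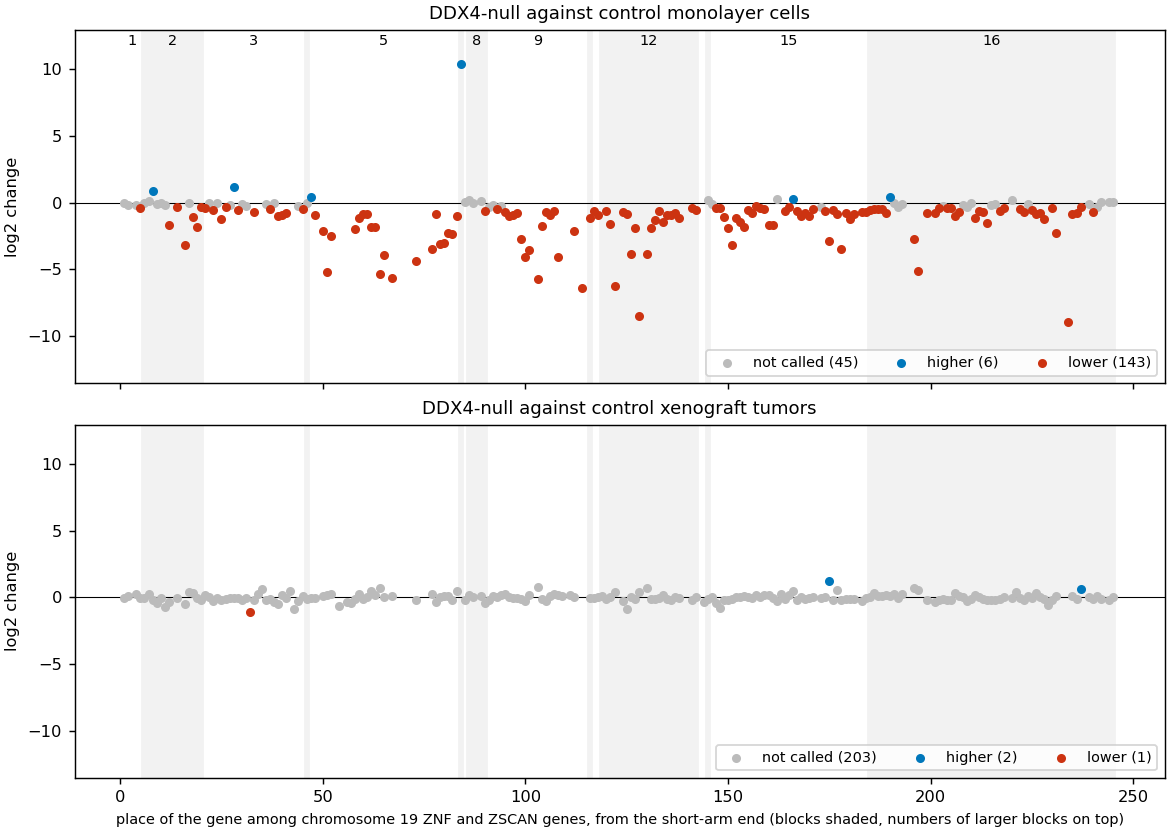
Log2 change of each tested member against its place in chromosome order, in cells (top) and tumors (bottom), coloured by call. In cells 143 of the 149 called genes lie below 0, with ZSCAN18 (block 16) and ZNF222 (block 12) lowest, and 6 lie above it, with ZNF536 highest, and in tumors 3 members were called.

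**Figure D5:**
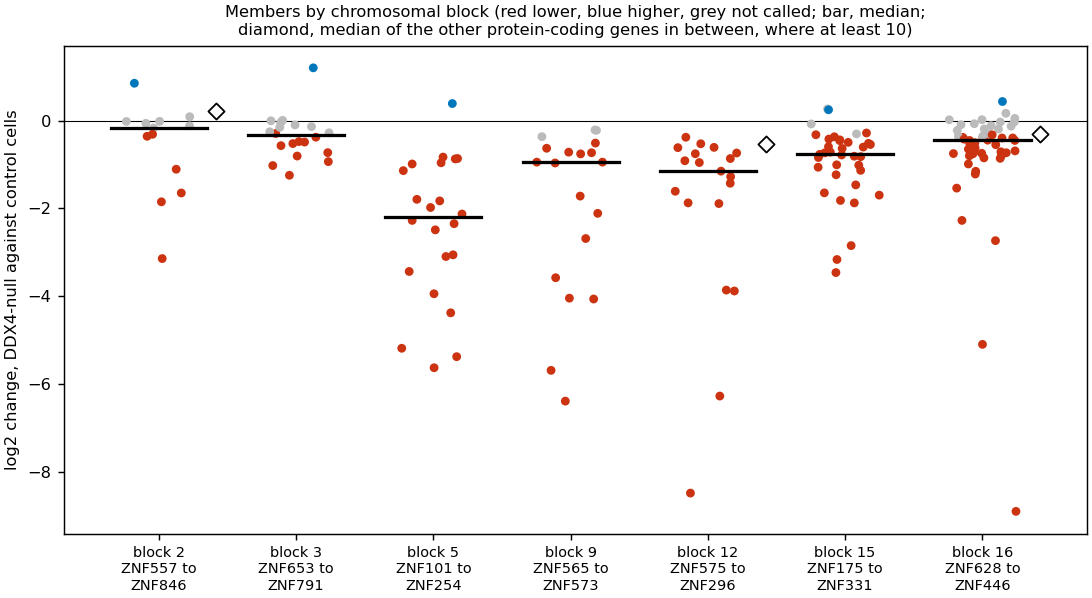
Log2 change in DDX4-null against control cells of the tested members of the 7 blocks with at least 13 tested members, with the block median as a bar and, as a diamond, the median of other protein-coding genes between them where there were at least 10. Block 5 has the lowest median, −2.20, and block 2 the highest, −0.17.

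The deepest falls not counted as off were in block 5. ZNF493 read 5.83, 4.90, 4.20 and 4.46 CPM in control cells and 0.107, 0.176, 0.122 and 0.0467 in DDX4-null cells. That is a log2 change of −5.38 ± 0.30 (adjusted p = 9.79e-12), and the groups did not overlap. ZNF93, the L1 repressor, read 2.58, 2.98, 3.25 and 2.13 CPM in control cells and 0, 0.235, 0.0611 and 0 in DDX4-null cells (log2 −5.19 ± 0.45, adjusted p = 5.56e-09). These sizes rest on 8 and 5 counts over the DDX4-null cells.

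Beyond the genes named by rule, all other members past 8-fold are given here, chosen after their values were seen. ZNF91, the SVA repressor of block 5, went from 38.0 ± 2.95 to 4.43 ± 1.04 CPM (log2 −3.10), and its neighbour ZNF675, known to bind TRAF6, from 20.2 ± 0.983 to 2.40 ± 0.469 (−3.06). In block 5 also lay ZNF429 (−3.95) and ZNF730 (−3.44). Block 9 held ZNF790 (−4.06), ZNF569 (−4.05) and ZNF345 (−3.58), and block 12 ZNF155 (−3.88) and ZNF284 (−3.86). On the outer long arm ZNF471 fell by 5.10, from 7.74 ± 1.53 to 0.230 ± 0.135 CPM. ZNF677, often methylated in carcinomas, fell by 3.46, from 38.4 ± 5.41 to 3.48 ± 0.663 CPM, and ZNF615 by 3.16. ZNF426, on the short arm, read 5.36, 7.81, 8.11 and 5.37 CPM in control cells and 0.907, 0.647, 0.856 and 0.607 in DDX4-null cells (−3.14 ± 0.22, adjusted p = 3.28e-10). Of the 22 genes, 20 were at 1 CPM or more in DDX4-null tumors, and 17 averaged higher there than in control cells. A higher level in tumors was common among members: in control tumors against control cells, 171 of 205 tested had a log2 change above 0.

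Of the 6 risers, ZNF536 is described above and the others rose by 0.25 to 1.20 log2 units. ZNF69 read 1.39, 1.06, 1.18 and 1.49 CPM in control cells and 2.83, 2.12, 3.55 and 3.32 in DDX4-null cells (log2 1.20 ± 0.22, adjusted p = 6.98e-05), with no overlap. ZNF414 rose from 11.1 ± 2.83 to 20.2 ± 2.83 CPM (0.85 ± 0.16, adjusted p = 0.000104). ZNF580, a short zinc finger protein without KRAB, rose from 26.1 ± 3.18 to 35.3 ± 3.35 CPM (0.44 ± 0.11, adjusted p = 0.00234). ZNF101, at the edge of block 5, rose by 0.39 ± 0.14 (adjusted p = 0.0192), a call lost without library 3 or 4 of the control cells (adjusted p = 0.0564 and 0.0679). ZNF83 rose by 0.25 ± 0.10 (adjusted p = 0.0316). Its call was lost without control cells 1 or 3 or DDX4-null cells 3 or 4 (adjusted p = 0.0650 to 0.114). With no filter on low counts (adjusted p = 0.0556) and in the model of all 16 libraries (0.128) it was lost too. In all, 8 of 17 alternatives lost the ZNF83 call. ZNF274, which brings SETDB1 to zinc finger gene clusters and was looked up for that role, fell from 19.5 ± 2.82 to 11.5 ± 1.13 CPM (log2 −0.76).

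In the tumors few genes of any kind were called between the genotypes, and the members' share was near that of all genes. Of 206 members tested, 2 were called higher and 1 lower, with a median log2 change of −0.05, where 0.981% of all 12942 genes were called higher and 1.1% lower (2.09% in all). At an unadjusted p under 0.05 there were 38 members, or 18.4%, against 21.3% of all genes. DESeq2 called 10 higher and 5 lower, and edgeR with all 16 libraries in 1 model 8 and 4. The shares of all genes called by these models are not given here, so these counts have no background beside them. Block medians lay between −0.08 and 0.07 in the 7 larger blocks, block 5 at 0.05.

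ZNF415 was called higher and had been called lower in cells. It read 7.28, 6.67, 6.83 and 7.24 CPM in control cells and 0.853, 0.941, 1.16 and 0.934 in DDX4-null cells (log2 −2.85 ± 0.17, adjusted p = 3.26e-11). In control tumors it read 3.69, 2.47, 2.84 and 2.47 CPM and in DDX4-null tumors 6.25, 7.94, 6.21 and 6.14 (1.22 ± 0.19, adjusted p = 0.0125). The groups did not overlap in either comparison, though in tumors the call was lost without control tumor 2 (adjusted p = 0.0567) or 3 (0.0678).

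ZNF544 also went in opposite directions. It read 34.2, 33.6, 33.1 and 26.5 CPM in control cells against 29.3, 19.3, 25.8 and 27.3 in DDX4-null cells (log2 −0.32 ± 0.13, adjusted p = 0.0317), where library 4 of the controls lay inside the DDX4-null range. In tumors it read 30.3, 29.5, 28.6 and 22.3 CPM in controls against 41.1, 43.1, 46.5 and 41.4 in DDX4-null tumors (0.64 ± 0.10, adjusted p = 0.0168), without overlap. The tumor call was lost without control tumor 3 (adjusted p = 0.0726), and the cell call without control cells 1, 2 or 3 or DDX4-null cells 2 (adjusted p = 0.0607 to 0.120). ZNF878, near 0 in cells, read 1.60, 1.59, 1.59 and 1.71 CPM in control tumors and 0.608, 0.707, 0.804 and 0.939 in DDX4-null tumors (−1.07 ± 0.24, adjusted p = 0.0462). It did not overlap, but its call was lost whichever of the 8 libraries was left out (adjusted p = 0.0614 to 0.156).

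Set against cells of the same genotype, the tumors had more of these transcripts. Of 205 members tested in the controls, 122 were higher in tumors and 10 lower (median log2 change 0.43), where 33.9% of all 12858 genes were higher and 31% lower (64.9% in all). The ZNF and ZSCAN genes of other chromosomes had 80 higher and 33 lower (median 0.18), and the other chromosome 19 genes 307 and 146 (median 0.18). Measured against those other chromosome 19 genes, 86 members were higher and 22 lower. The share of all genes called under that centring is not given here, and the percentages above belong to the main fit. With library totals only, the median of all genes moved by over 0.1, to 0.19, and that of the members to 0.59. In bulk tissue fewer cells of a type and less RNA per cell cannot be told apart, and the part of host cells in these differences was not tested. Beside them, marker sums per library differed between control cells and control tumors, at 23.8 to 31.0 against 1377 to 1863 CPM for fibroblasts (7 of 7 at 1 CPM or more in tumors), 1.01 to 1.92 against 14.1 to 30.9 for leukocytes (3 of 6), 1.03 to 1.29 against 98.5 to 339 for skeletal muscle (6 of 7), and 19.9 to 22.0 against 28.1 to 38.1 for endothelium (5 of 5 in the table). None of the fibroblast, leukocyte or muscle markers was at 0 in control tumors, while 4 muscle markers (MYH1, MYH2, MYH4 and TNNT3) were at 0 in control cells.

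Among the 7 larger blocks, blocks 3 and 5 had the highest medians, with 21 of 24 members higher (median 0.92) and 18 of 25 (median 0.75) and none lower in either. Short-arm members had a median of 0.69 and long-arm members 0.32. ZNF878 was called higher at 2.64 ± 0.41 log2 (adjusted p = 2.50e-05), from 0.249 ± 0.216 to 1.62 ± 0.0597 CPM. ZNF540 read 0.662, 0.142, 0.280 and 0.517 CPM in control cells and 3.48, 1.71, 2.51 and 1.96 in control tumors (2.57 ± 0.36, adjusted p = 7.40e-06). ZNF69 rose by 2.16 ± 0.18 to 5.74 ± 0.333 CPM. ZNF253 and ZNF682, neighbours in block 5, were higher by 1.84 ± 0.17 and 1.79 ± 0.20, at 13.4 ± 2.00 and 5.13 ± 0.849 CPM in control tumors. Beside ZSCAN18 and ZNF607, the larger falls were ZNF415 (−1.29 ± 0.16), ZNF426 (−1.25 ± 0.21) and ZNF146 (−1.06 ± 0.09).

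In DDX4-null libraries the gap was wider. Of 197 members tested, 173 were higher in tumors and 5 lower, with a median log2 change of 1.08, where 34.6% of all 13277 genes were higher and 35.3% lower (69.8% in all). Called and at least 2-fold higher were 107 members, or 54.3%, against 14.5% of all genes, and at least 8-fold higher were 28, or 14.2%, against 2.64%. The filter passed 29 of the 197 through the tumors alone, and of the 167 that passed in both groups 145 were higher and 4 lower (median 0.92). The ZNF and ZSCAN genes elsewhere had 90 higher and 31 lower (median 0.29). Fibroblast markers summed to 45.4 to 57.7 CPM in these cells and 1667 to 10759 in the tumors (7 of 7 at 1 CPM or more), leukocyte markers to 1.12 to 1.71 and 13.1 to 68.7 (3 of 6, CD3E at 0), muscle markers to 0.467 to 0.706 and 6.26 to 325 (6 of 7), and endothelial markers to 32.3 to 36.1 and 32.8 to 52.9. Their part was not tested.

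All 23 tested members of block 5 were higher in DDX4-null tumors (median 3.29). ZNF493 read 7.90, 12.7, 9.83 and 8.64 CPM there, ZNF93 9.29, 8.05, 5.80 and 5.07, and ZNF253 13.0, 17.4, 14.7 and 11.3, all above every DDX4-null cell library. Of the 5 called lower, 4 did not overlap (2.03% of those tested, against 32.1% of all genes): ZNF536, then ZNF146 (−0.76 ± 0.10), ZNF414 (−0.54 ± 0.13) and ZNF473 (−0.31 ± 0.09, adjusted p = 0.00935). ZNF473 is a component of the histone pre-mRNA processing machinery. These comparisons share libraries with the genotype comparisons, so the values are given side by side and not as support for each other.

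The effect of genotype was tested for a difference between tumors and cells in a model of all 16 libraries. Of 209 members tested, 120 had a higher tumor effect and 6 a lower one (median log2 difference 0.61), where 26% of all 13603 genes were called higher and 26.8% lower (52.8% in all). With library totals only, the median of all genes moved to −0.16 and 98 members were higher and 9 lower. The shares of all genes called under that scaling are not given here, and the percentages above belong to the main fit. In block 5 the difference was called higher for 23 of 25 members (median 2.41). For ZNF493 it was 6.09 ± 0.37 and for ZNF415 4.07 ± 0.25 log2 units. The lower ones included ZNF69 (−1.27 ± 0.26), ZNF414 (−1.08 ± 0.22), ZNF101 (−0.45 ± 0.18, lost in 13 of the 16 fits that left out 1 library, with adjusted p = 0.0504 to 0.113) and ZNF473 (−0.37 ± 0.12). Contrasts of genes near 0 counts in a group are set in part by the prior count and are no measured sizes.

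Per kilobase of annotated exon, ZNF146 was the most abundant member at 36.8 CPM per kb over all 16 libraries, followed by ZNF581 (35.5), ZNF358 (27.9), ZNF83 (25.7), ZNF317 (19.7) and ZNF266 (18.2). Their log2 changes between the cell groups ran from −0.31 to 0.25. ZNF146, which has fingers but no KRAB domain, read 227, 187, 208 and 236 CPM in control cells, 164, 173, 189 and 214 in DDX4-null cells, 105, 92.6, 109 and 103 in control tumors and 107, 113, 106 and 106 in DDX4-null tumors. The cell groups overlapped (log2 −0.21 ± 0.10, adjusted p = 0.0787), and all tumors lay below all cells. ZNF581 and ZNF317 passed the test in none of the 4 pairwise comparisons, at 57.0 to 67.1 and 95.8 to 104 CPM by group. ZNF358 was not called in cells (0.09 ± 0.11) and was higher in tumors of both genotypes (0.43 ± 0.10 and 0.57 ± 0.11). ZNF266 went from 87.8 ± 8.54 to 70.8 ± 6.47 CPM in cells (−0.31 ± 0.10, adjusted p = 0.0108), and ZNF83 had its highest mean in DDX4-null tumors, 281 ± 38.1 CPM. ZSCAN22 was not called in cells either, at 11.9 ± 0.620 and 11.4 ± 0.882 CPM.

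Genes that work with KRAB and SCAN proteins were called in both directions. Of 32 listed cofactors 30 were tested, and in cells 12 rose and 4 fell (median log2 change 0.16), beside 35% higher and 32.3% lower over all genes. TRIM28, the KRAB corepressor, averaged 336 ± 45.7 CPM in control cells and 293 ± 40.2 in DDX4-null cells (−0.20 ± 0.12, adjusted p = 0.144). SETDB1, the methyltransferase that TRIM28 recruits, fell from 56.2 ± 1.02 to 43.1 ± 1.85 CPM (−0.38 ± 0.09, adjusted p = 0.00104). DNMT1, the maintenance DNA methyltransferase, rose from 134 ± 5.94 to 246 ± 19.1 CPM (0.88 ± 0.09), and CHD3, a remodelling subunit bound by TRIM28, rose by 0.87 ± 0.10. HDAC1, a histone deacetylase, fell by 1.09 ± 0.09, and CBX5, heterochromatin protein HP1 alpha, was not called. In the tumors 0 of the 30 passed the edgeR test in either direction, beside 2.09% of all genes. By that test 4 of the 30 had an unadjusted p under 0.05, beside 21.3% of all genes. DESeq2 called 2 lower, DNMT1 and CHD4, and 0 higher, and its share over all genes is not given here. By edgeR DNMT1 had a log2 change of −0.25 ± 0.08 (adjusted p = 0.123), and CHD4 and DNMT3B had adjusted p-values of 0.0999 and 0.143. In control tumors against control cells 13 of the 30 were higher and 4 lower, beside 33.9% and 31% of all genes. In DDX4-null tumors against DDX4-null cells 8 were higher and 6 lower, beside 34.6% and 35.3% of all genes.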

How the data were processed

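RNA was sequenced from 16 libraries, 4 in each of 4 groups taken from the labels. Per the labels' protocols, RNA was taken up in TRIsure, freed of DNA and turned into stranded TruSeq mRNA libraries. The authors' tools, per the submitters' processing notes, were Trimmomatic 0.39, STAR 2.7.10a and featureCounts 2.0.3, on build GRCh37. Not given in the sources used here are the strand setting, the annotation release and the treatment of host reads. The deposited values are raw counts per Ensembl gene. Symbols came from the gene name table (19446 IDs) and GENCODE v29 (65 more), and 845 IDs stayed unnamed.

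Counts were filtered with filterByExpr, TMM-scaled and tested across all genes with edgeR 4.0.16 (glmQLFit and glmQLFTest, R 4.3.3), with Benjamini-Hochberg adjustment over all genes tested and a threshold of 0.05. Levels are means of TMM-scaled CPM ± SD over 4 libraries, and changes are log2 ± SE. Intervals on ratios are exact binomial at 95% and, like floors of 3 counts, cover counting error only. Positions and blocks come from GENCODE v29 (GRCh38), and windows from RefSeq. Alternatives used DESeq2 1.42.0, other scalings, filters, thresholds and libraries left out. The fits were tested on simulated data. Members, lists and naming rules were chosen with earlier results of these data known. By rule the named genes are the members switched off in a group, the 8 largest rises and falls of each genotype comparison and the 5 largest of the other comparisons among called, non-overlapping members at 1 CPM or more, the 6 highest per kilobase, and those called in both genotype comparisons. Replicates differed by more than counting noise in every pair.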

Additional observations from a re-analysis of the deposited data

Results flagged for a closer look

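The effect of genotype differed between tumors and cells for 126 of 209 tested members, or 60.3%. That is by the interaction test over all 16 libraries (edgeR, adjusted p under the threshold). Over all 13603 genes tested, 52.8% were called. Among the named genes, the difference (tumor effect minus cell effect, log2) was 8.94 for ZNF222, 6.67 for ZNF283, 6.44 for ZNF568, 6.30 for ZSCAN18, 5.78 for ZNF607, 5.70 for ZNF43, 4.17 for ZNF492, 3.89 for ZNF626 and −7.53 for ZNF536. These 9 values rest on a group at or near 0 counts and are not measured sizes. The difference was 6.09 for ZNF493 and 5.33 for ZNF93, which rest on 8 and 5 counts over the DDX4-null cells and so also on a group near 0. It was 4.07 for ZNF415, 2.73 for ZNF682, 2.62 for ZNF426, 2.21 for ZNF253 and 0.96 for ZNF544. It was −1.27 for ZNF69, −1.08 for ZNF414, −0.45 for ZNF101 and −0.37 for ZNF473.

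Single libraries stood apart from the other 3 of their group for 8 of 87 gene and group pairs examined, where chance alone gives about 1 in 20. In DDX4-null tumors, ZNF222 read 3.82 CPM in library 4 against 2.76 to 2.94, ZNF101 read 16.6 in library 1 against 13.0 to 13.4, ZNF415 read 7.94 in library 2 against 6.14 to 6.25, and ZNF146 read 113 in library 2 against 106 to 107. In control tumor library 4, ZNF878 read 1.71 CPM against 1.59 to 1.60 and ZNF266 read 94.9 against 124 to 129. In control cell library 4, ZNF544 read 26.5 CPM against 33.1 to 34.2 and ZNF358 read 38.0 against 48.5 to 49.8.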

How the results depend on the processing

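Counts of called members in the cell comparison, the comparisons of tumors with cells and the difference between effects stayed within 1.5 times under DESeq2, relative log expression factors, library totals, both other filters, the model of all 16 libraries, the replicate block and the wider set of symbols. Requiring more than a 1.5-fold change with glmTreat left 71 lower and 2 higher in cells, 0 and 0 in tumors, 36 higher and 6 lower between control tumors and cells, 2 lower between DDX4-null tumors and cells, and 71 higher and 3 lower for the difference. Centring on the other chromosome 19 genes gave 22 lower in control tumors against control cells. The shares of all genes called with glmTreat or this centring are not given here.

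The tumor comparison depended on the model: DESeq2 called 10 higher and 5 lower, the model of all 16 libraries 8 and 4, and no filter or the replicate block 0 lower. The shares of all genes called under these settings are not given here. Leaving out 1 library gave 0 to 4 higher and 0 to 1 lower there. In cells it gave 5 to 7 higher and 130 to 145 lower, in control tumors against cells 108 to 127 and 10 to 13, in DDX4-null tumors against cells 166 to 181 and 4 to 5, and for the difference 114 to 130 and 3 to 8, the 3 without control tumor 3, when ZNF536 lost its call.

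Switched-off members numbered 2 at 0 counts, 14 at up to 10 counts, 16 when expressed meant 0.5 CPM and 5 when it meant 2 CPM, and 8 to 11 with 1 library left out. Without control tumor 4, ZNF626 was lost; without DDX4-null cells 2, ZNF93 and ZNF418 were added, and without DDX4-null tumor 1, ZNF556. Of 2493 values of named genes under alternatives, 78 lost and 29 gained a call, and none turned direction. The labels do not state whether replicate numbers pair the libraries. Correlations of same-numbered deviations ran from −0.26 to 0.44 in cells and −0.05 to 0.21 in tumors. Differently numbered libraries gave −0.50 to 0.46 and −0.29 to 0.26, so the correlations do not settle the pairing. The replicate block moved no count other than the tumor one past 1.5 times. Differences of the size seen in tumors are limited by 4 libraries a group. Levels under 0.246 CPM, scaled without TMM factors, could not be told from 0 in the shallowest library.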
